A study of Homo sapiens with 2 samples.

Results

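Telomerase and shelterin genes were examined in CP-A, a Barrett's epithelial cell line that carries the telomerase gene TERT as a stably transfected transgene, on 2 arrays, 1 hybridized with RNA of a control culture and 1 with RNA of a culture kept at pH 6.4 + DCA. Members were 10 genes chosen by name, TERT, DKC1, TERF1, TERF2, POT1, TINF2, ACD, TERF2IP, RTEL1 and TEP1. Of these, 7 were matched by gene symbol among 20893 transcript clusters, the probe sets of the array, each with 1 row. For DKC1, RTEL1 and TEP1 the annotation used gave no row, and these 3 genes were not analysed here. Both cultures shared the transgene and a medium with serum, EGF, pituitary extract, hydrocortisone and cholera toxin. According to the methods, exposure of CP-A consisted of 3 periods of 48 h in acidified medium with 100 µM DCA (deoxycholic acid, a secondary bile acid), each followed by regrowth in basal medium. The promoter of the transgene is not given in the sources used here. With a single array in each group, the differences below carry no error and no p-value. The arrays are named by their sample labels. In RNA from a whole culture, fewer cells expressing a gene and less RNA per cell cannot be told apart.

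Telomeres are the repeated DNA ends of chromosomes, which shorten as cells divide. Telomerase extends them by reverse transcription, with TERT as the catalytic subunit and an RNA template that dyskerin, the product of DKC1, holds in place. Shelterin is the protein complex that covers the repeats and keeps the repair machinery from treating them as breaks. TERF1 and TERF2 bind the duplex repeats, POT1 binds the protruding single strand together with ACD (also called TPP1), TINF2 joins both sides, and TERF2IP (RAP1) sits on TERF2. Normal epithelial cells in culture usually lack enough telomerase to divide without limit, and introduced TERT is a common way to immortalize them.

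No measured member differed by 2-fold or more between the arrays, the threshold given in the methods. TERT and POT1 had higher levels on the pH 6.4 + DCA array, TERF1 and ACD had lower ones, and the other members lay closer to 0. Of 7 genes, 4 had a difference above 0 and 3 below 0, and the median log2 difference (pH 6.4 + DCA minus control) was 0.06, against 0.0066 over all transcript clusters. Levels on the pH 6.4 + DCA array ranged from 53.4% of control for TERF1 to 170.2% for POT1. Over all 20893 transcript clusters, 2.65% were higher at 2-fold or more and 4.00% were lower. At 1.5-fold, 2 members were higher and 1 was lower, where 10.9% of all transcript clusters were higher and 11.5% were lower. With 7 genes, these counts do not set the members apart from the background.

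TERT (TC0500009852.hg.1, chromosome 5) gave a strong signal on both arrays. Its log2 level was 15.49 in control and 16.15 with pH 6.4 + DCA, a difference of 0.66 or 1.58-fold. On the control array 201 of 20893 transcript clusters reached that level or more, and on the other array 128 did, which describes signal and not numbers of molecules, since probe sets differ in their response. A difference this far from 0 was seen in 17.6% of all transcript clusters. Transcripts of the transgene and of the resident gene cannot be told apart here, because the positions of the probes are not given in the sources used. The nearest measured genes on either side of the resident locus on chromosome 5, the amino acid transporter gene SLC6A18 and CLPTM1L, had differences of 0.04 and 0.10. SLC6A18 had levels of 3.83 and 3.87, under the lower quartiles of 4.43 and 4.45, so that its value rests on a weak signal.

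**Figure D1:**
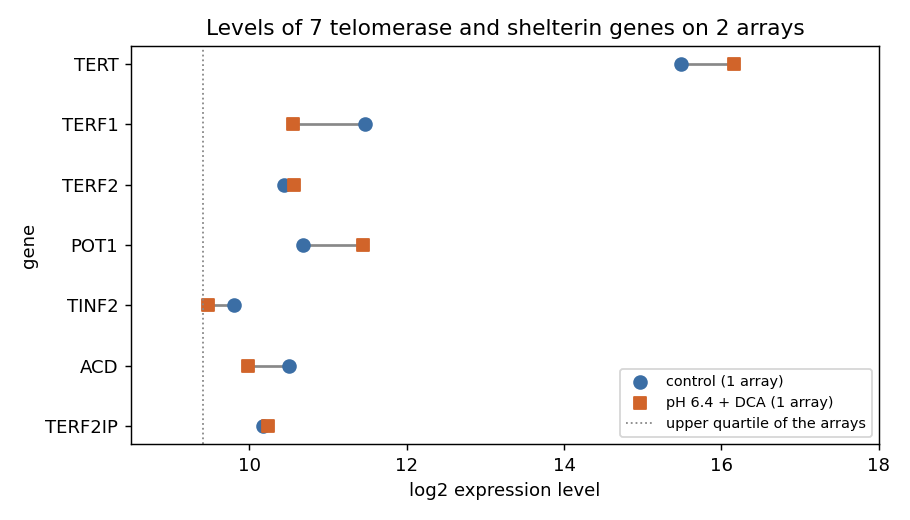
Log2 expression level (horizontal axis) of the 7 measured genes, with 1 point for the control array and 1 for the pH 6.4 + DCA array, joined by a line. All 7 genes lie above the upper quartile of both arrays, the pH 6.4 + DCA point lies to the left for TERF1, ACD and TINF2, with differences of -0.91, -0.51 and -0.32, and to the right for TERT and POT1, with 0.66 and 0.77.

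TERF1 and TERF2 encode related proteins that bind the duplex repeats as homodimers, TERF1 being known as a regulator of telomere length and of replication through the repeats, and TERF2 as the factor that keeps chromosome ends from fusing. TERF1 (TC0800007949.hg.1) had a log2 level of 11.47 in control and 10.56 with pH 6.4 + DCA. Its difference of -0.91 was the lowest of the members, just short of 2-fold, and 8.68% of all transcript clusters lay as far from 0. TERF2 (TC1600011557.hg.1) had levels of 10.44 and 10.56, a difference of 0.12, which 77.5% of transcript clusters matched or exceeded in size. TERF2IP (TC1600011428.hg.1), whose protein is carried by TERF2 and limits recombination at chromosome ends, had levels of 10.17 and 10.24, a difference of 0.06. TERF2 and TERF2IP were thus the members nearest to equal levels on both arrays, at 109.0% and 104.6% of control.

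POT1 and ACD encode the heterodimer at the single-stranded overhang, in which ACD also recruits telomerase. The log2 level of POT1 (TC0700012479.hg.1) was 10.68 in control and 11.45 with pH 6.4 + DCA, a difference of 0.77 or 1.70-fold, the highest of the members. A difference of this size was reached by 13.0% of transcript clusters. ACD (TC1600010647.hg.1) went the other way in sign, from 10.50 to 9.99, a difference of -0.51 that left 70.0% of the control level. TINF2 (TC1400008746.hg.1), which encodes the bridge between the duplex-binding proteins and ACD, had levels of 9.81 and 9.48, a difference of -0.32, or 79.9% of control. Differences as far from 0 as those of ACD and TINF2 were found in 27.4% and 47.2% of transcript clusters.

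**Figure D2:**
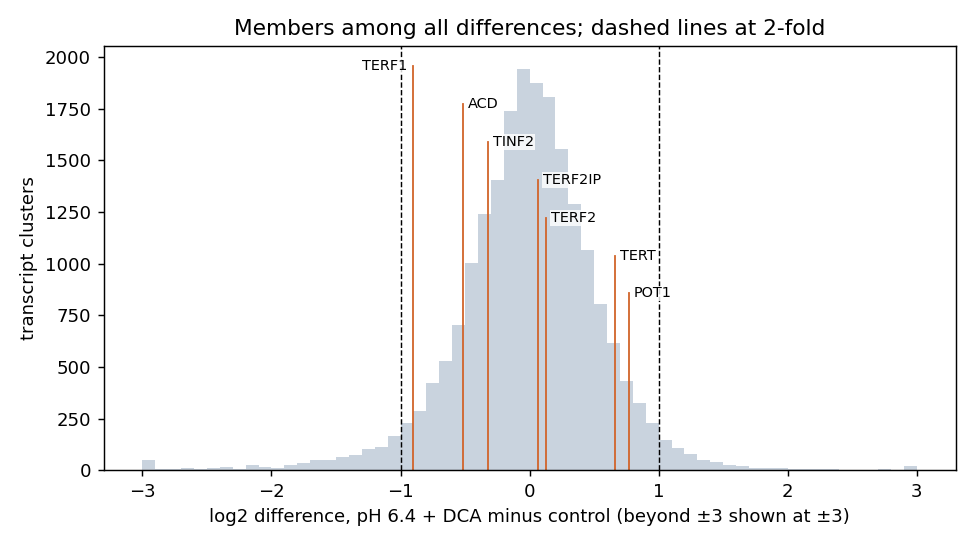
Number of transcript clusters (vertical axis) in bins of the log2 difference, pH 6.4 + DCA minus control (horizontal axis), with the 7 genes marked by lines whose height carries no value and dashed lines at 2-fold. All 7 lie between the dashed lines, from -0.91 for TERF1 to 0.77 for POT1.

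The balance between shelterin subunits was set out as ratios within each array, in which a shift common to the whole array cancels. The pairs are subunits that bind each other or are related, and they were chosen after the values were seen. The ratio of POT1 to its partner ACD was 2.43-fold higher on the pH 6.4 + DCA array, a log2 change of 1.28 made of 2 differences that were each under 2-fold. That of TERF2 to TERF1 was 2.04-fold higher, a log2 change of 1.03. TINF2 over TERF1 changed by 0.58 and TINF2 over ACD by 0.19, while TINF2 over TERF2 changed by -0.45. TERF2IP over TERF2, the passenger and its carrier, changed by -0.06. Centring cannot change such a ratio, and averaging of rows cannot either, because each member has 1 row. Across quantile normalization, removal of a trend with level and addition of 32 on the linear scale, the POT1 to ACD change stayed between 1.26 and 1.30 and the TERF2 to TERF1 change between 1.01 and 1.03. The partners had similar, well expressed levels, so these steps could hardly move the ratios. These ratios show unequal change within 1 pair of arrays and come without replicates. The 2 pairs past 2-fold hold POT1 and TERF1, the members with the highest and the lowest difference. How often the ratio of any 2 genes passes 2-fold was not computed, so these ratios have no background share.

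**Figure D3:**
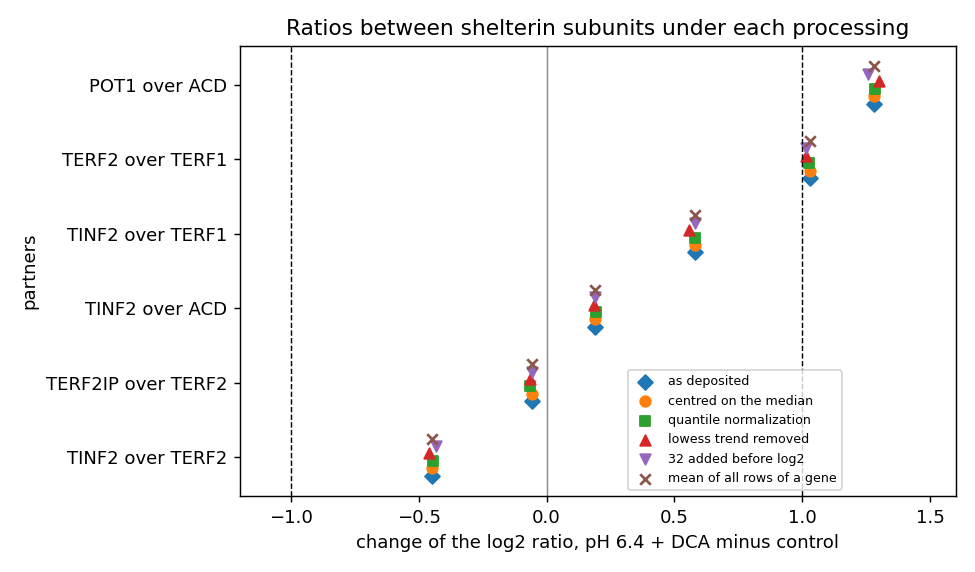
Change of the log2 ratio between 2 shelterin genes, pH 6.4 + DCA minus control (horizontal axis), for 6 pairs, with 1 symbol for each way of processing the values and dashed lines at 2-fold. Centring and averaging of rows match the deposited values by construction, and symbols of a pair lie close together, at 1.26 to 1.30 for POT1 over ACD, at 1.01 to 1.03 for TERF2 over TERF1 and at -0.06 for TERF2IP over TERF2.

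The upstream regions of POT1 and ACD are shown because these partners had differences of opposite sign. Each run holds the 250 bases before the gene's start in RefSeq, read 5′ to 3′ on the strand of the gene, and capitals mark matches to the GC box GGGCGG on either strand, the letters bound by SP1-type factors.
POT1, GRCh38.p14 chr7:124929826-124930075, minus strand: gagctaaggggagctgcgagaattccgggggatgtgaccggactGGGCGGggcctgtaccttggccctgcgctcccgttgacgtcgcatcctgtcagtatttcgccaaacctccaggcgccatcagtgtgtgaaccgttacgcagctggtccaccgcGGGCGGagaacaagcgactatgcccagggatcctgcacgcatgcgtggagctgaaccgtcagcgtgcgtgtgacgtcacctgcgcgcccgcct
ACD, GRCh38.p14 chr16:67660261-67660510, minus strand: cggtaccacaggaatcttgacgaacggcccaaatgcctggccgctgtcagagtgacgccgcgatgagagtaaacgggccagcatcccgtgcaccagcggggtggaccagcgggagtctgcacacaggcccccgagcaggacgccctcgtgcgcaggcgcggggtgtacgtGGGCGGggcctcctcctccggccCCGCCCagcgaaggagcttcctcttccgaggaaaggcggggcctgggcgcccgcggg

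Both windows were rich in G and C, at 64.4% for POT1 and 70.8% for ACD, and each held 2 GC boxes. Windows were found for 5 of the 7 measured members, 6 windows in all because TINF2 has 2 of them, which overlap. The GC box occurred in 6 of these 6 windows, and in 42.6% of 35116 windows of the same length in the table. The CCAAT letters occurred in 2 of 6, both of TINF2, against 32% of all windows. The ETS core CGGAAG occurred in 3 of 6, in windows of TINF2, ACD and TERF2IP, against 16.5%. The E-box CACGTG occurred in the TERT window and in 6.34% of all windows. Neither the cell cycle homology letters TTTGAA nor the telomere unit TTAGGG occurred in the 6 windows, against 13.3% and 7.94% of all windows. All motifs were searched on both strands, none of them contains another, and a match describes letters and not binding. The TERT window belongs to the resident gene and not to the transgene.

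The members' differences were also set beside those of their neighbours in gene order, since copy number of whole chromosomes was a subject of the study. TERF1 on chromosome 8 lay outside the range of the 20 nearest measured genes, which ran from -0.69 to 0.68 with a median of -0.09. POT1 on chromosome 7 lay near the top of its neighbours, whose median was 0.07 and highest value 0.92. That value was of ASB15, named after its value was seen. Its signals of 3.36 and 4.28 were weak, under the lower quartiles of 4.43 and 4.45. Neighbours of all members were taken at any level, so other weak signals are among them. ACD lay at -0.51 among neighbours with a median of 0.06 and a lowest value of -0.75, while TERF2 and TERF2IP, also on chromosome 16, lay near their neighbours' medians of 0.08 and -0.06. TINF2 on chromosome 14 lay at -0.32 beside a neighbour median of -0.28, and 4 of those neighbours were lower at 2-fold or more. Around TERT the median was 0.10, but the values were spread from -1.69 to 2.10, with 3 neighbours higher and 1 lower at 2-fold or more. Over all transcript clusters, 2.65% were higher and 4.00% were lower at this threshold. Over the better expressed genes of a whole chromosome, those at or above the median level, the median was 0.29 for chromosome 5 with TERT, 0.28 for chromosome 7 with POT1, -0.02 for chromosome 8 with TERF1, -0.08 for chromosome 14 with TINF2 and -0.06 for chromosome 16. With these taken off, differences of 0.37 for TERT and 0.49 for POT1 remained, and TERF1 was at -0.88. For TERT, the neighbours and the chromosome median describe the resident locus. The TERT signal cannot be split between the resident gene and the transgene, whose site is not given, so 0.37 cannot be assigned to chromosome 5. By array CGH, which compares DNA copy number, the paper reports loss of the chromosomes carrying the resident TERT gene, POT1 and TERF1 in CP-A after treatment. On the expression arrays, the medians were 0.29 for chromosome 5, 0.28 for chromosome 7 and -0.02 for chromosome 8. For chromosome 5, the paper ascribes lower expression of ADAM19, CENPH and DPYSL3, also measured by RT-qPCR, to the loss of the chromosome. The part of copy number in the members' differences and in these medians was not tested.

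**Figure D4:**
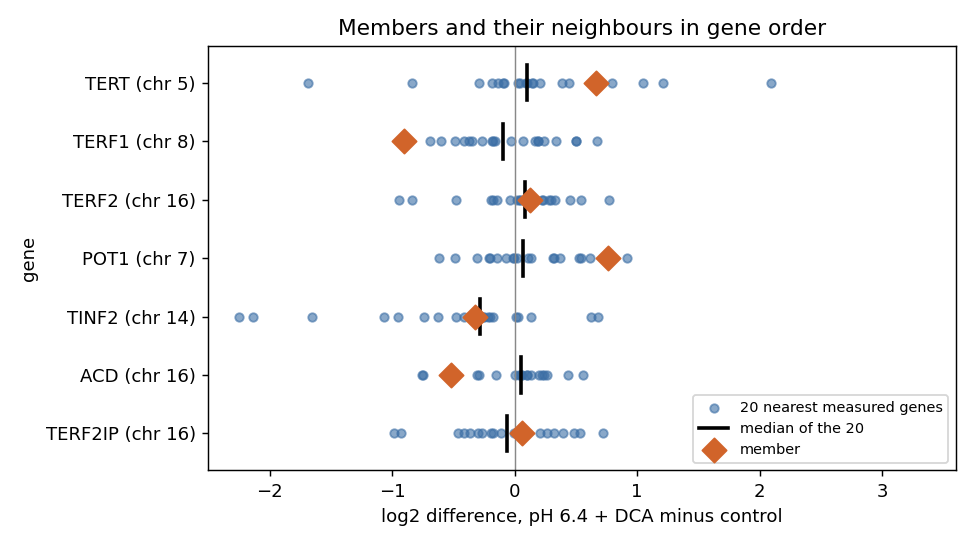
Log2 difference, pH 6.4 + DCA minus control (horizontal axis), of each of the 7 genes (diamonds) and of the 20 measured genes nearest to it in gene order (circles), with bars at the median of the 20. TERF1, at -0.91, lies below all 20 of its neighbours, and TINF2, at -0.32, lies beside their median of -0.28. The neighbours of TERT are those of the resident gene, while the TERT signal may include the transgene.

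Of 51 measured genes of the machinery around telomerase and shelterin, out of 54 listed, 1 was higher at 2-fold or more and 3 were lower, and the median difference was 0.08. With 2.65% of all transcript clusters higher and 4.00% lower, these counts are near the background. Assembly of telomerase runs through the H/ACA proteins that bind its RNA together with dyskerin. Of 10 genes listed for assembly, H/ACA proteins and other factors, 0 were higher or lower, with a median of 0.04. The value farthest from 0 was that of NOP10, an H/ACA protein, at -0.48. WRAP53, named after its values were seen, guides telomerase to Cajal bodies. It had levels of 3.75 and 4.02, under the lower quartiles of 4.43 and 4.45, so that its value rests on a weak signal. Of 8 genes of telomerase RNA maturation 0 passed 2-fold, with a median of 0.18 and the farthest value in the RNA capping enzyme MEPCE at 0.59.

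Genes that refill the C-rich strand after telomerase has acted included those with lower levels. CTC1 and STN1, subunits of the CST complex, had differences of 0.47 and -0.11. CST brings in DNA polymerase alpha with its primase, and both primase genes were lower at 2-fold or more on the pH 6.4 + DCA array. PRIM1, the catalytic subunit of primase, had levels of 7.70 and 6.36, a difference of -1.34 that left 39.4% of control. PRIM2, the large subunit, had levels of 9.30 and 7.87, a difference of -1.43 that left 37.2%. The polymerase subunits POLA1 and POLA2 had differences of -0.08 and -0.77. Of 6 genes measured in this list 2 were lower and 0 were higher, with a median of -0.44. Over all transcript clusters, 4.00% were lower and 2.65% were higher at 2-fold or more. TEN1 was not analysed here. These enzymes also start every Okazaki fragment in ordinary replication.

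Among 14 measured accessory factors, proteins that work on telomeres through shelterin, 1 was higher and 1 was lower, with a median of 0.09. The shares over all transcript clusters were 2.65% higher and 4.00% lower. RAD50, a subunit of the MRN complex that senses breaks and resects chromosome ends, had levels of 12.82 and 14.00, a difference of 1.18 or 2.26-fold, and lies on chromosome 5. ERCC1, part of the nuclease that can trim overhangs and is held by TERF2, had levels of 13.89 and 12.79, a difference of -1.10 that left 46.7% of control. With quantile normalization the ERCC1 difference was -0.94, under 2-fold. Named after their values were seen, TNKS, the tankyrase that releases TERF1 from telomeres, had levels of 6.97 and 7.91, and NBN, the partner of RAD50 in MRN, had levels of 9.58 and 8.67. Their differences of 0.94 and -0.92 had opposite signs. Both genes lie on chromosome 8 as TERF1 does, where the median over the better expressed genes was -0.02. To complete the complexes, MRE11, the other MRN subunit, had levels of 9.06 and 8.95, a difference of -0.12. ERCC4, the partner of ERCC1 in the nuclease, had a difference of 0.29.

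**Figure D5:**
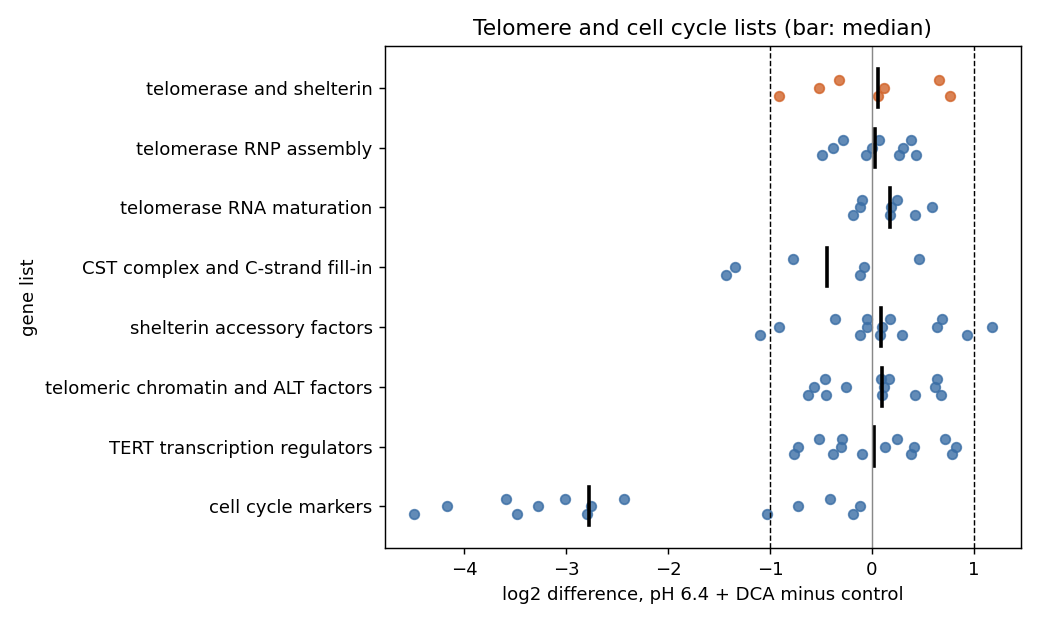
Log2 difference, pH 6.4 + DCA minus control (horizontal axis), of each measured gene in 8 lists, with bars at the medians and dashed lines at 2-fold. The telomerase and shelterin genes have a median of 0.06 and lie between the dashed lines, the C-strand list has a median of -0.44 with PRIM1 and PRIM2 beyond 2-fold, and the cell cycle markers have a median of -2.78.

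Cell cycle markers had far larger differences than the members. Of 14 cell cycle markers 10 were lower at 2-fold or more and 0 were higher, with a median of -2.78. Among all transcript clusters, 4.00% were lower and 2.65% were higher. The lower ones were MKI67, TOP2A, CCNB1, PLK1, CDC20, BUB1, AURKA, CCNA2, TYMS and TK1, from -4.49 for the mitotic kinase PLK1 to -1.03 for the thymidylate synthase TYMS, which lay under 2-fold at -0.97 when the arrays were centred and at -0.95 with 32 added on the linear scale. The other 4 markers, the replication genes MCM2, MCM5, PCNA and RRM2, had differences of -0.12, -0.41, -0.19 and -0.72. The part of this difference in the values of PRIM1, PRIM2, TERF1 or any other member was not tested. The methods describe a mitotic block with nocodazole for RNA used in PCR, and whether the RNA on the arrays came from blocked cells is not given there.

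Epithelial identity was checked with marker genes on both arrays. All 6 epithelial markers lay above the median of their array, with KRT19 and KRT7 at 17.08 and 16.42 in control, and 2 of them, EPCAM and KRT18, were lower at 2-fold or more. Of 3 measured squamous or basal markers 2 were lower at 2-fold or more, the basal keratin KRT14, from 14.42 to 11.54, and KRT13, from 5.77 to 4.77, while KRT5, another basal keratin, had levels of 17.00 and 16.40. KRT13 lay under the median of each array. All measured epithelial and squamous or basal markers had differences below 0. Among all transcript clusters, 4.00% were lower at 2-fold or more, and 50.5% had differences above 0. None of 6 intestinal or gastric columnar markers, CDX2 and MUC2 among them, lay above the median on both arrays, and of 10 measured markers of fibroblasts, leukocytes and endothelium 2 did, COL1A2 and VWF. The median log2 level over all transcript clusters was 6.55 in control and 6.50 with pH 6.4 + DCA.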

How the data were processed

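Biotin-labelled cDNA of CP-A was hybridized to 2 Clariom S arrays. The authors deposited log2 expression levels made with Transcriptome Analysis Console (4.0, per the submitters' processing notes). The sources used here give neither their background correction, summarization and normalization nor a genome build. Levels were used as deposited, over 20893 transcript clusters, without 555 unmapped transcripts. Genes were matched by symbol in the platform annotation, and the row with the highest mean of both arrays was kept, which gave 17687 genes. Differences are pH 6.4 + DCA minus control, with a threshold of 2-fold. With 1 array per group no test was possible, and precision is limited by this number of arrays. The members and gene lists were chosen with earlier results of these data known. Named genes are the members, list genes at 2-fold or more and the nearest neighbours of TERT by position. In a list with none at 2-fold, the gene farthest from 0 was named. Other genes are said to be named later, or serve as markers or to complete a complex. Gene order came from RefSeq, GRCh38.p14. A planned comparison of protein sequences was not run. Calculations used Python 3.11.15, numpy 2.4.6, pandas 2.3.3 and statsmodels 0.14.6, and were tested on simulated data.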

Additional observations from a re-analysis of the deposited data

How the results depend on the processing

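Quantile normalization, centring of each array, subtraction of a lowess trend (span 0.3), addition of 32 on the linear scale and the mean of all rows of a gene left every measured member under 2-fold and on the same side of 0; the mean of rows could not move them, since each has 1 row. TERT ranged from 0.66 to 0.75, POT1 from 0.76 to 0.82, TERF1 from -0.91 to -0.85, ACD from -0.53 to -0.46, TINF2 from -0.35 to -0.27, TERF2 from 0.11 to 0.18 and TERF2IP from 0.05 to 0.12. Leaving out dim genes removed no member. Counts of members depend on the threshold by construction: 2 were higher and 1 was lower at 1.5-fold, against 0 and 0 at 2-fold. Also at 1.5-fold, 4 of 14 measured accessory factors were higher and 2 were lower. Of 13 telomeric chromatin genes 3 were higher and 1 was lower, and of 14 TERT regulators 3 and 2. Of 8 telomerase RNA maturation genes 1 was higher. Over all transcript clusters, 10.9% were higher and 11.5% were lower at 1.5-fold. At 3-fold, 0 genes of the C-strand list were lower and 0 accessory factors were higher or lower. With quantile normalization 0 accessory factors were lower, because ERCC1 came to -0.94. No paired analysis was possible because each group has 1 array. A repeat array would be needed to give these differences an error.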

Other observations

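Genes of telomeric chromatin and regulators of TERT transcription were not among those that differed by 2-fold. At that threshold, 2.65% of all transcript clusters were higher and 4.00% were lower. Of 13 genes measured for telomeric chromatin and for telomere maintenance without telomerase, 0 were higher or lower at 2-fold or more, and the median log2 difference was 0.10. The value farthest from 0 was that of SMG6, a nuclease of nonsense-mediated decay with a known role at telomeres, with levels of 8.26 and 8.94 and a difference of 0.68. Named after their values were seen, ATRX and DAXX, which place a histone variant at telomeres and are often lost in tumours that maintain telomeres by recombination, had differences of 0.43 and 0.17. Of 14 measured regulators of the resident TERT promoter 0 passed 2-fold, with a median of 0.02. GABPA, an ETS family factor, lay farthest from 0, with levels of 8.16 and 8.99 and a difference of 0.83. Also named then, MYC, an activator of TERT, had levels of 13.12 and 13.51, and its partner MAX had levels of 11.26 and 10.50, with differences of 0.39 and -0.76. CBX5 and GABPB1 were not analysed here.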
